A study of Bos taurus with 20 samples.

Results

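Of 14636 genes with enough counts to test in cultured bovine muscle stem cells, 91 had their highest mean level after the last of 4 days in low serum, at least 2.5 times that of the day before. They were chosen from the counts themselves. Levels were CPM, counts put on a common scale by library size, with the sizes adjusted by TMM (trimmed mean of M-values, which evens out composition between libraries), averaged over 4 libraries per time point, with 0.1 CPM added. A gene was a member if its 96 h mean was at least 1 CPM, was the largest of the 5 means, and was at least 2.5 times the 72 h mean and 2 times the 0 h mean. The 24 h mean had to lie above the 0 h mean divided by 2 and below 2 times the 96 h mean, and at least 1 read had to be counted at 0 h. The count table held 27607 genes in all, and the 91 members all passed its filter on low counts because the rule required it. A further 3 genes met every condition except the read at 0 h.

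The cells were satellite cells of Belgian Blue cattle, a double-muscled breed. All 20 libraries came from the same kind of culture, grown on collagen in medium with 20% fetal bovine serum (0 h) and then switched at once to medium with 2% serum for 24, 48, 72 or 96 h. Each time point had replicates A and B, labelled batch 1, and C and D, labelled batch 2. The labels call the replicates biological but do not say whether they came from separate animals, and no culture was kept in 20% serum beyond 0 h, so time in low serum and time in culture cannot be told apart. Libraries held 21100797 to 41998509 counts. The labelled cell type could not be checked against marker genes, because the table names genes by Ensembl identifiers alone and the gene table used here paired 0 of 27607 with a symbol. Genes are therefore described by their values, and only the pair with the steepest last-day change is named.

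Satellite cells are the resident stem cells of skeletal muscle. When serum is withdrawn they stop dividing, commit to the muscle lineage and fuse into multinucleated myotubes, and the genes of the contractile and metabolic machinery come on in sequence as the myotubes mature. In bulk samples, a larger share of cells that express a gene and more RNA per cell cannot be told apart.

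As a group the members went from a trace to a visible part of the transcriptome. At 0 h they held 0.0573 ± 0.00228% of all counts (SD, n = 4), and after a day of low serum 0.404 ± 0.0266%. The share was 0.936 ± 0.0879% at 48 h, stood lower at 72 h, at 0.584 ± 0.101%, and came to 1.79 ± 0.278% at 96 h. At 72 h the libraries lay at 0.514% in replicate A, 0.480% in B, 0.668% in C and 0.673% in D. At 96 h they lay at 1.87%, 1.86%, 2.04% and 1.39% in the same order. All 4 libraries at 96 h were above all 4 at 48 h, and all 4 at 72 h were below all 4 at 48 h. These shares sum genes that were chosen for a low 72 h and a high 96 h level, so they describe the choice. The 5 most abundant members, the only ones at or above 1000 CPM at 96 h, supplied 1.11 ± 0.190% of counts at that time, and the other members 0.678 ± 0.0897%.

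**Figure D1:**
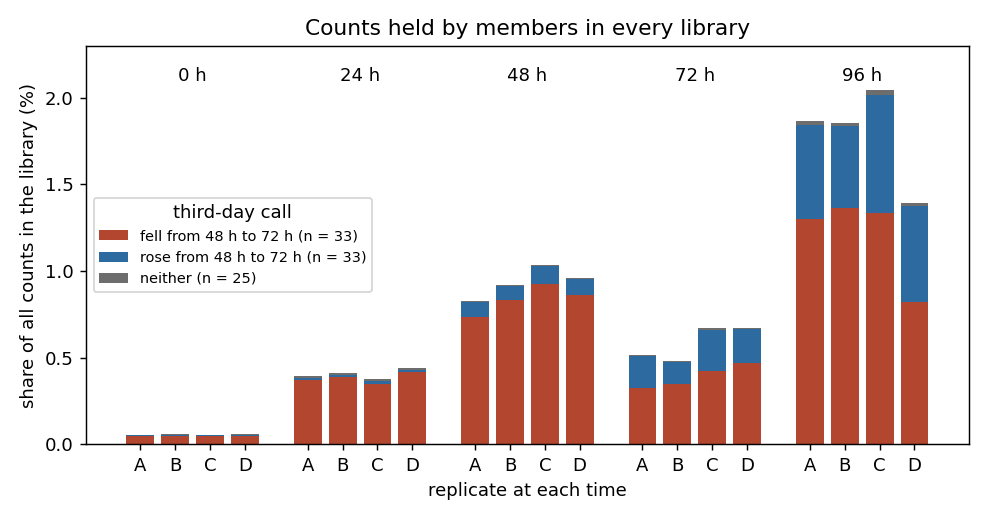
Share of all counts in each library held by the 91 members, with libraries A to D at 0, 24, 48, 72 and 96 h on the horizontal axis and percent of counts on the vertical axis. Bars are stacked by whether a member was lower, higher or neither at 72 h against 48 h; totals reach 1.39 to 2.04% at 96 h after 0.480 to 0.673% at 72 h.

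Levels at 96 h spanned a wide range. The median member had 14.5 CPM, the lowest 1.04 CPM and the highest 5114 CPM. In all 51 members reached 10 CPM and 27 reached 100 CPM, while 31 stayed below 5 CPM. At 0 h the median was 0.396 CPM, and 3 members had only 1 to 3 counts over the 4 libraries, so no fold against 0 h is given for them. In the fit across all genes all 91 were called higher for 96 h against 72 h, as were 19.3% of all genes, and for 96 h against 0 h, as were 40.2% of all genes; the rule used both contrasts. The ratio of the 96 h to the 72 h mean, both with 0.1 CPM added, had a median of 3.16 and a highest value of 8.67. It was at least 4 for 23 members, at least 5 for 15, and under 3 for 37. The members closest to the threshold had ratios of 2.52 and 2.53, and the genes just below it, which met every other condition, had ratios of 2.49 and 2.48. The cut therefore runs through a continuous range, with 1280 genes below it that met the other conditions.

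ENSBTAG00000007823 had the highest ratio. It was close to absent at 0 h, with 2, 1, 0 and 2 counts in replicates A to D, and at 24 h it had 7, 6, 11 and 10 counts. At 48 h it stood at 4.81 CPM in A, 5.92 in B, 4.69 in C and 5.16 in D. At 72 h all 4 libraries were lower, at 3.19, 2.24, 2.43 and 2.55 CPM, a fitted third-day log2 change of -0.97 with a standard error of 0.24. At 96 h it reached 24.1, 22.0, 34.3 and 13.0 CPM. The lowest 96 h library, replicate D, was still above every library at the other times. The mean moved from 2.60 ± 0.408 to 23.3 ± 8.74 CPM between 72 h and 96 h (SD, n = 4), a fitted log2 change of 3.14 with a standard error of 0.23. Because the gene was picked for a high 96 h and a low 72 h mean, no test is given for either step.

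ENSBTAG00000001842 took another route to a similar end. It had 0.254, 0.363, 0.301 and 0.659 CPM at 0 h in replicates A to D and moved early, to 2.55, 2.44, 1.87 and 4.47 CPM at 24 h. These times did not overlap, and the fitted log2 change was 2.87 with a standard error of 0.35. The rule bounds both means and favours early rises, so no test is given for this step. It then stood at 2.97, 3.70, 2.52 and 4.14 CPM at 48 h and at 2.12, 2.44, 3.25 and 2.09 CPM at 72 h. The libraries of 24, 48 and 72 h overlapped. The step from 24 h to 48 h did not pass the test (edgeR log2 change 0.24, adjusted p = 0.416), and that from 48 h to 72 h had a fitted log2 change of -0.46. At 96 h it was at 23.0, 20.7, 26.9 and 15.2 CPM, all above every earlier library. The mean changed from 2.47 ± 0.538 to 21.4 ± 4.89 CPM in the last day (SD, n = 4), a fitted log2 change of 3.13 with a standard error of 0.24.

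**Figure D2:**
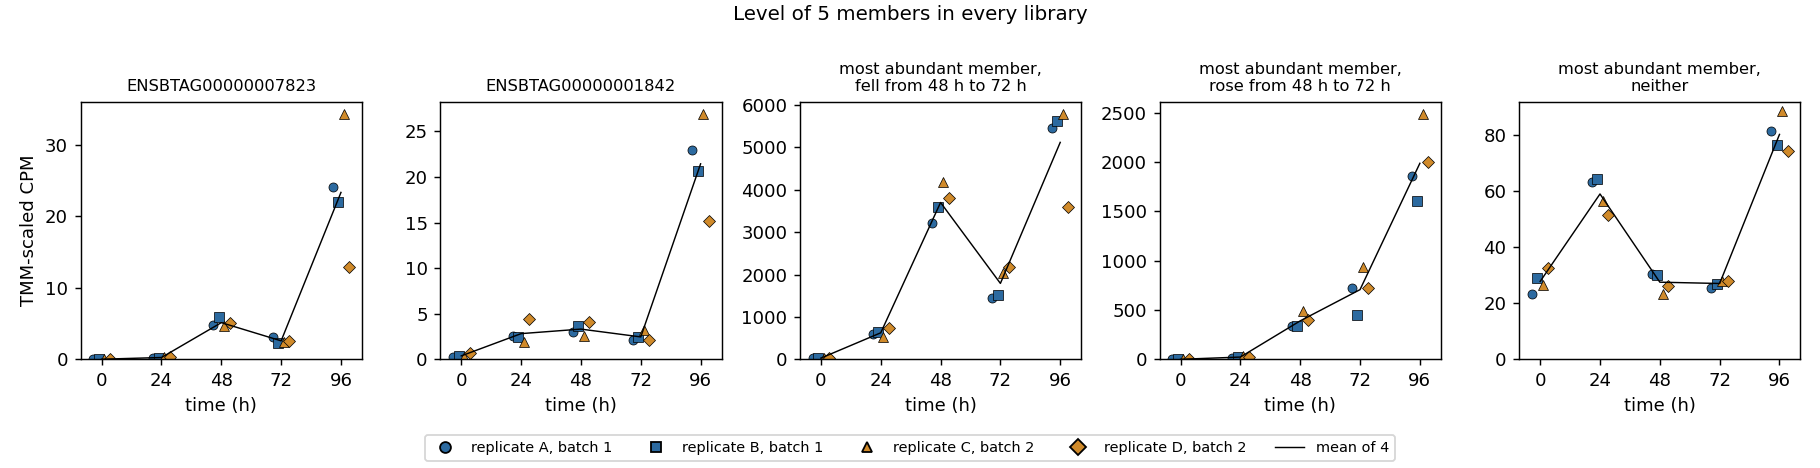
TMM-scaled CPM of 5 members in every library against time in low serum, on linear axes that start at 0; each point is 1 library, shifted sideways by replicate for visibility, and the line joins the means of 4. The first pair of panels are the named genes, at 13.0 to 34.3 and 15.2 to 26.9 CPM at 96 h, and the others are the most abundant members that were lower, higher or neither at 72 h against 48 h.

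The members differed in their third-day step, and neither named gene was among those that rose. On the third day, from 48 h to 72 h, 33 members fell, 33 rose and 25 did not pass the test (edgeR quasi-likelihood test, adjusted p under 0.05 over all 14636 genes). Of all genes tested, 20.8% were called lower and 20.7% higher at 72 h. The rule caps the 72 h level, which favours falls and smaller rises, so these counts describe the members. Among the 1280 genes that met every condition except the last-day ratio, 81 fell and 595 rose on the third day. The difference from those genes was not tested, since the ratio that separates them contains the 72 h level.

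In the members that fell on the third day, the course was a rise, a dip and a second rise. Their median level was 3.37 CPM before the switch, 11.97 CPM after a day and 51.9 CPM by 48 h. It was then 12.7 CPM at 72 h and 76.0 CPM after the last day. The drop from 48 h to 72 h had a median of -1.21 on the log2 scale and ranged from -2.25 to -0.49. This drop defined the group and is a description. For 18 of 33 the 72 h mean was below the 24 h mean. The 96 h mean was close to the 48 h mean in most of them, with a median ratio of 1.62 (lowest 1.10, highest 4.47) and 28 of 33 within 2-fold. The last day thus brought these genes back to, and somewhat past, a level held before, a bound the rule itself sets since 96 h had to be the largest mean.

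The most abundant member belonged to this group. It had 29.7, 35.4, 25.7 and 37.8 CPM at 0 h in replicates A to D, 611, 650, 522 and 730 CPM at 24 h, and 3215, 3582, 4187 and 3808 CPM at 48 h. At 72 h it was down to 1456, 1508, 2037 and 2167 CPM, and at 96 h it stood at 5462, 5624, 5782 and 3589 CPM. All 72 h libraries lay below all 48 h libraries, with a fitted log2 change of -1.05 (standard error 0.17), for which no test is given because the group was formed on it. At 96 h replicate D overlapped the 48 h range while the other libraries were above it. Without replicate D the 96 h mean was 5623 ± 160 CPM (SD, n = 3), against 5114 ± 1025 CPM with it (SD, n = 4).

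The members that rose on the third day had a median that climbed at each step from a lower start. Their median level was 0.190 CPM at 0 h and 0.258 CPM a day later. It went on to 2.16 CPM at 48 h and 4.87 CPM by 72 h, and ended at 17.2 CPM. The step from 48 h to 72 h had a median of 1.48 on the log2 scale, with a range of 0.36 to 4.79. The 96 h mean was 3.78 to 102 times the 48 h mean, with 0.1 CPM added to each. Its most abundant member had 1.21 to 2.35 CPM at 0 h and 16.8 to 37.6 CPM at 24 h. It continued through 341, 339, 487 and 398 CPM at 48 h and 720, 447, 938 and 723 CPM at 72 h to 1857, 1607, 2485 and 1998 CPM at 96 h, in replicates A to D. Only replicate B at 72 h lay inside the 48 h range.

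The 25 members that passed in neither direction on the third day were mostly scarce. Their median was 0.336 CPM before the switch, between 0.640 and 0.912 CPM over the next 3 time points, and 2.46 CPM at the end, and 7 reached 10 CPM at 96 h. The exception in level was a member that rose on the first day from 23.2, 29.0, 26.6 and 32.7 CPM to 63.4, 64.6, 56.6 and 51.7 CPM in replicates A to D. It was back at 30.7, 30.2, 23.4 and 26.1 CPM at 48 h and stayed at 25.4, 27.0, 28.0 and 28.1 CPM at 72 h. At 96 h it had 81.7, 76.5, 88.7 and 74.5 CPM, above every earlier library. The first rise and the fall that followed had fitted log2 changes of 1.08 and -1.09, each with a standard error of 0.097. The rule bounds these means and the member was chosen after the values were seen, so no test is given.

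**Figure D3:**
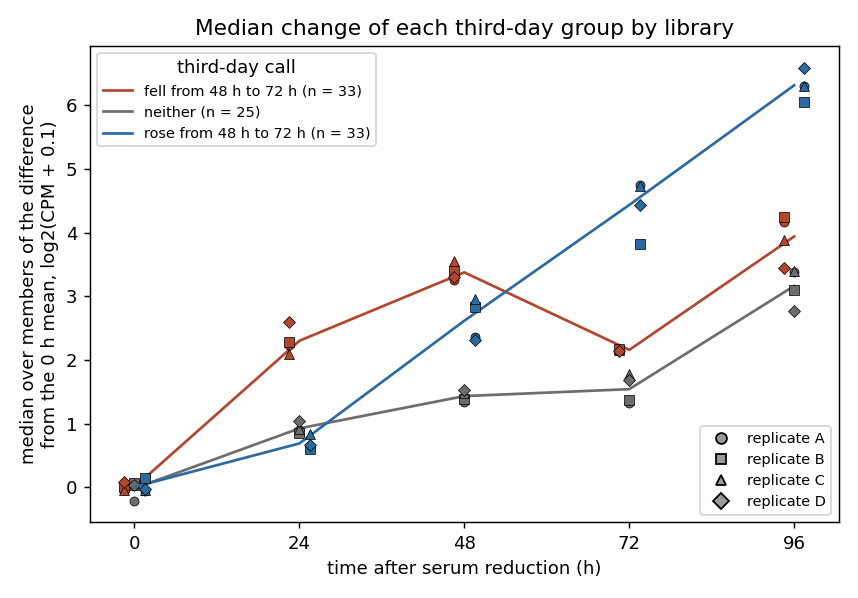
Median over the members of each third-day group of the difference from the gene's own 0 h mean, on the log2(CPM + 0.1) scale, against hours in low serum; each point is 1 library, its shape gives the replicate and the line joins the means of 4. The group that fell on the third day has 3.38 at 48 h, then 2.16 and finally 3.94, while the group that rose passes through 2.62 and 4.44 to 6.31.

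The earlier steps of these groups were as follows. For 24 h against 0 h, 60 of the 91 members rose and 3 fell, where 31.7% of all genes rose and 34.5% fell. The rise was called for 30 of the 33 members that later dipped, for 15 of the 33 that rose on the third day and for 15 of the other 25. For 48 h against 24 h, 61 members rose and 4 fell, with backgrounds of 31.4% and 31.9%. Among the 1280 genes that met every condition except the last-day ratio, 1012 rose and 50 fell on the first day. On the second day 1016 of them rose and 27 fell. Rises were thus called for 79.1% and 79.4% of those genes, against 65.9% and 67.0% of members, so early rises were not particular to the members. The most frequent sequence was a rise, a rise and a fall before the last day, in 25 members, followed by 3 rises in a row, in 13. The share of all genes with these sequences was not computed and the rule caps the 72 h level, so the sequences only describe the members. The rule asks for a level at 96 h above that at 0 h, which favours early rises. With library sizes alone the median of all genes shifted by -0.32 for 48 h against 24 h and by -0.11 for 72 h against 48 h, and the members' counts were 51 higher and 6 lower, and 31 higher and 34 lower. The shares of all genes called with that scaling were not computed.

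**Figure D4:**
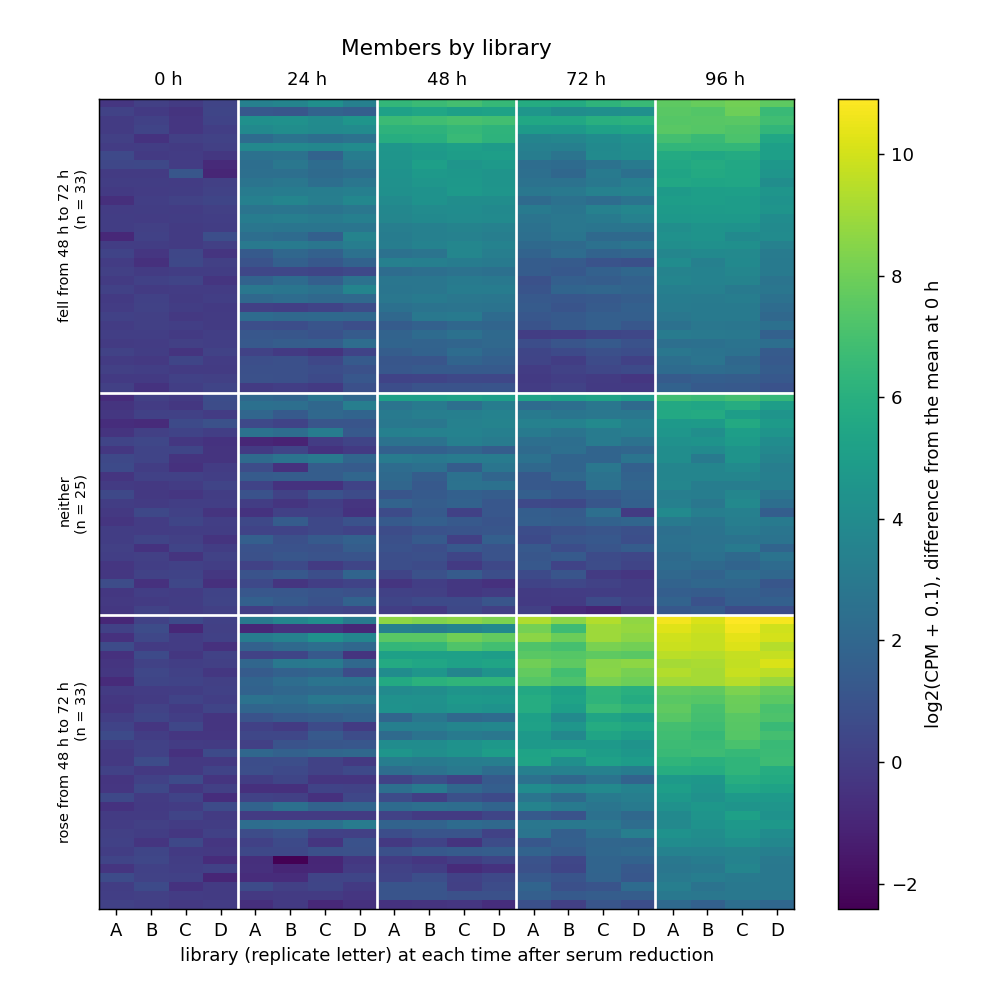
Difference of log2(CPM + 0.1) from the gene's own mean at 0 h for the 91 members (1 per line, no names) in the 20 libraries, ordered by time and replicate; lines are grouped by the third-day call and ordered within groups by their 96 h level. The 33 genes in the top block are lighter at 48 h than at 72 h, and most of the 33 in the bottom block brighten from 48 h to 72 h and again to 96 h.

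The last-day rise was then measured in libraries that had no part in choosing the genes. The rule applied to batch 1 alone chose 117 genes. In batch 2, 101 of them rose from 72 h to 96 h and 0 fell (edgeR quasi-likelihood test on the 10 libraries of batch 2, adjusted over 14636 genes), where 8.92% of all genes rose. The change was above 0 for all 117, with a median of 1.36 on the log2 scale (lowest 0.52, highest 3.77), and both batch 2 libraries at 96 h lay above both at 72 h for 115, as they did for 30.9% of all genes. The rule applied to batch 2 alone chose 74 genes. In batch 1, 69 of them rose and 0 fell, where 17% of all genes rose, and the change was above 0 for all 74 (median 1.92, lowest 0.06, highest 3.62). Both batch 1 libraries at 96 h lay above both at 72 h for 71 of the 74, and for 33.7% of all genes. The sets shared 54 genes, which were 46.2% of those chosen in batch 1 and 73.0% of those chosen in batch 2. All 54 were among the 91 members. That was fixed in advance, since a gene that meets the rule in both batches also meets it on the means of both together.

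These counts moved when single libraries were left out, which changes the genes chosen, the libraries that measure them or both. The numbers of genes chosen and the shares of all genes are not given for these settings, so these counts cannot be read against those above. The first count was lower without 72 h replicate C or without 72 h replicate D, each of which left 1 library of batch 2 at that time. Without 96 h replicate C, which left replicate D alone to represent 96 h in the choosing batch, the second count was 39. A lone library was assumed to vary like those of the other time points. The filter on low counts and the TMM factors used all 20 libraries.

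The third-day dip was also found in the batch that had not chosen the genes. Of 43 genes chosen in batch 1 that fell there from 48 h to 72 h, 34 fell in batch 2 and 0 rose, where 12.7% of all genes fell, and the change was below 0 for all 43 (median -1.001 on the log2 scale). Of 20 genes chosen in batch 2 that fell there, 15 fell in batch 1 and 0 rose, where 13% of all genes fell, and 1 of the 20 changes was above 0 (median -1.41). For the genes that rose on the third day, 22 of 27 chosen in batch 1 rose in batch 2 and 16 of 19 chosen in batch 2 rose in batch 1, against backgrounds of 12.4% and 12.5%. All these genes had already been called for the same step in the batch that chose them. The share of all genes called in 1 batch that were also called in the other was not computed. The backgrounds are therefore not matched, and the counts do not show a trait particular to these genes.

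**Figure D5:**
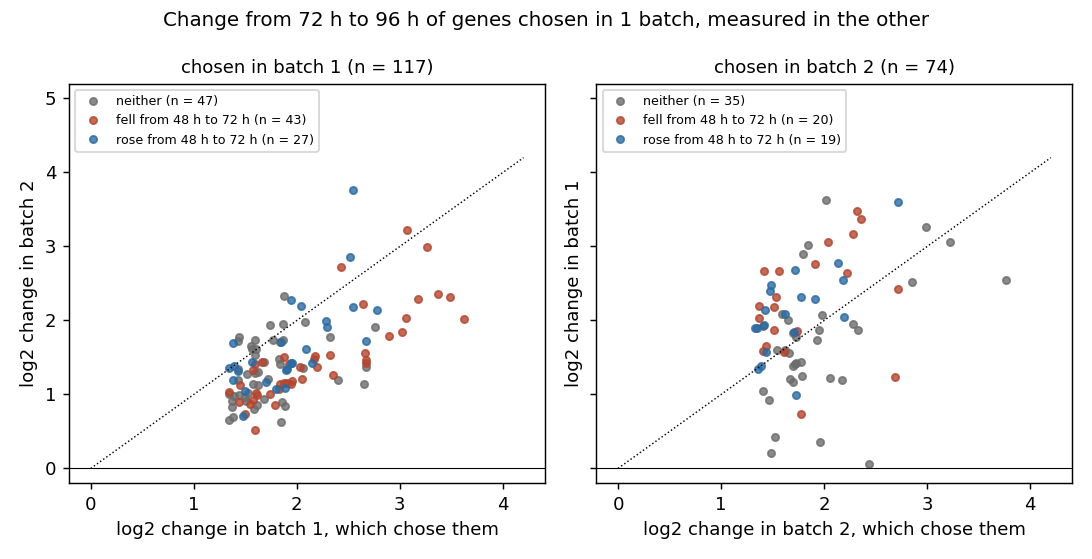
Log2 change from 72 h to 96 h of 117 genes chosen in batch 1 (left) and 74 chosen in batch 2 (right), with the batch that chose them on the horizontal axis and the other batch on the vertical axis; the dotted line marks equal change. Every point lies above 0 on the vertical axis and most of those on the left lie below the dotted line; the medians on the vertical axis are 1.36 (left) and 1.92 (right).

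Levels of the members varied between libraries. The biological coefficient of variation is the spread between replicates beyond counting error, here estimated over all 5 time points and not for the last-day rise. Its median was 17.8% over the 91 members and 8.08% over all genes tested, and 89 members were above the latter value. Members averaging at least 10 CPM over all libraries, 34 in number, had a median of 16.6%, and all 9265 genes at that level had 6.92%. At 96 h the highest library was more than 2-fold above the lowest for 19 members and less than 1.5-fold above it for 33. For 90 of 91 members all 4 libraries at 96 h lay above all 4 at 72 h, a separation the rule favours and that 14.7% of all genes showed. In the remaining member replicate D at 96 h, at 0.440 CPM, fell inside the 72 h range of 0.0708 to 0.907 CPM.

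The libraries at the extremes differed between the groups. Among the 33 members that fell on the third day, replicate D was the lowest library at 96 h for 31 and the highest at 72 h for 20. Over all genes tested it was the lowest at 96 h for 25.5% and the highest at 72 h for 22.7%. This group held 1.30%, 1.36% and 1.33% of all counts in replicates A, B and C at 96 h and 0.824% in replicate D. Among the 33 members that rose on the third day, replicate C was the highest at 96 h for 27 and at 72 h for 21, where 27.3% and 30.5% of all genes were highest there, and replicate B was the lowest at 72 h for 25, as it was for 20.5% of all genes. Without 96 h replicate D the median fitted change from 72 h to 96 h was 1.86 over the 91 members and 1.96 over the 33 that fell, against 1.76 and 1.81 with all libraries.

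The members called for a difference between batches were all higher in batch 2. Of the 91, 13 were called higher in batch 2 and 0 lower (edgeR test of the batch term, which the rule does not use), where 10.9% of all genes were higher and 8.36% lower. At an unadjusted p under 0.05 the counts were 21 higher and 0 lower, where 18% and 16.1% of all genes were so, and the share of members that were higher is near that background. DESeq2 called 10 members higher and 0 lower, where it called 12.1% of all genes higher. Without the filter on low counts edgeR called 25 higher, and 7.5% of all genes. Of the 13 called, 10 belonged to the group that rose on the third day, whose median difference was 0.29 on the log2 scale. The count depended on single libraries and was 5 without 96 h replicate C, 18 without 96 h replicate D, and 7 or 8 without 48 h replicate A or any of 72 h replicates A, B and C. The shares of all genes in these settings were not computed, so these counts cannot be set against a background.

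Whether the time course differed between batches depended on the filter on low counts. The test of all batch by time terms called 0 of 91 members (edgeR), where 0.00683% of all genes were called, but without the filter it called 35 members and 5.54% of all genes. All 91 passed the filter, so their own counts were the same in both fits, which differed in the other genes they held. Which of these fits is the more accurate was not tested. DESeq2 called 1 member and 0.15% of all genes. With the filter, 13 members and 9.72% of all genes passed edgeR at an unadjusted p under 0.05. Without 96 h replicate C, batch 2 had 1 library at that time, so the count for that setting is not read as a difference in time course. A single contrast of the change from 72 h to 96 h, added after the values were seen and fitted with the filter, called 0 members, and 0.0205% of all genes. At an unadjusted p under 0.05 the change was smaller in batch 2 for 21 members and larger for 5, where 6.67% and 8.36% of all genes were so. Of the 21, 16 were in the group that fell on the third day, in which the median difference was -0.75 on the log2 scale. At 96 h this group held 0.824% of counts in replicate D and 1.30 to 1.36% in A, B and C. At 72 h it held 0.324% and 0.347% in A and B, and 0.420% and 0.470% in C and D. How far the difference between batches rests on 96 h replicate D alone was not tested. With all 91 members measured in each batch, the median change from 72 h to 96 h was 1.93 in batch 1 and 1.61 in batch 2.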

How the data were processed

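RNA was sequenced from 20 polyA libraries made with a stranded kit, 75 bp, per the labels' protocols. The authors deposited raw counts per Ensembl gene, made with STAR 2.7 and featureCounts on bosTau9 per the submitters' processing notes. With strand setting, gene models and parameters not given in the sources used here, reads of overlapping genes or near-identical copies may be shared. All 27607 lines named a gene, and no 2 libraries were identical.

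The tests used edgeR 4.0.16 in R 4.3.3, with DESeq2 1.42.0 as an alternative. Genes were kept by filterByExpr (minimum count 10, minimum total 15), leaving at least 99.967% of each library's counts, and scaled by TMM. The quasi-likelihood fit (robust) covered the 20 libraries and had terms for time and batch, and tests were two-sided with Benjamini-Hochberg adjustment over 14636 genes. Standard errors were derived from the F statistics. The functions were tested on simulated data. P-values measure the spread between these libraries, which may be technical.

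The members, lists and tests were chosen with earlier results of these data known. The rule for named genes, without symbols, took the first 2 by last-day ratio among members at 5 CPM or more at 96 h. Other single members are the most abundant of each third-day group, chosen after the values were seen. Gene lists, cell type markers and promoter motifs could not be used without symbols. Replicate letters were not taken to pair libraries in the main fit. Of 40 same-letter correlations of deviations, 22 exceeded 0.1, with a median of 0.14 (lowest -0.35, highest 0.53). These values do not settle whether the letters pair libraries, so a fit with the letters as a block is given below.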

Additional observations from a re-analysis of the deposited data

Results flagged for a closer look

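Among 60 sets of 4 replicate values checked by Dixon's test, 4 held a library far from the other 3, and chance gives about 1 in 20. At 96 h the 33 members that fell on the third day held 0.824% of counts in replicate D and 1.30 to 1.36% in the others. The most abundant of them was at 3589 CPM in replicate D and at 5462 to 5782 CPM in the others. At 0 h the median difference from the gene's own mean was 0.14 on the log2 scale in replicate B for the members that rose on the third day, with the others at -0.06 to -0.02. For the members that passed in neither direction it was -0.21 in replicate A at 0 h, with the others at 0.03 to 0.07.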

How the results depend on the processing

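Recounted under every alternative, 300 counts lay within 1.5 times the one reported and 14 lay beyond. The number of members was 172 at 2-fold and 54 at 3-fold over 72 h, and it ranged from 78 to 107 without single libraries. It was 72 with library sizes alone and 65 with 0.5 CPM added. Without the filter on low counts, 25 members differed between batches and 35 had a time course that differed between batches, against 13 and 0. DESeq2 called 1 member for the latter. For these settings the cause was not tested. When 1 library at a time was left out, the ranges were 5 to 18 for batch, 0 to 10 for batch by time, 57 to 116 for genes chosen in batch 1 and 39 to 95 for genes chosen in batch 2. The upper end for batch by time came from leaving out 96 h replicate C, which left batch 2 with 1 library at 96 h. It has no share of all genes beside it, so no conclusion is drawn from it. All other counts for the time steps kept within 1.5 times, except the 3 members lower at 24 h than at 0 h, which became 1 to 5. Over 27 alternatives, the fitted change of ENSBTAG00000007823 from 72 h to 96 h lay between 2.84 and 3.35. That of ENSBTAG00000001842 lay between 2.99 and 3.30. Both genes were picked for this change, so no test is given. With the letters as a replicate block, 91, 64, 66 and 65 members were called in either direction for 96 h against 72 h, 24 h against 0 h, 48 h against 24 h and 72 h against 48 h, against 91, 63, 65 and 66. The shares of all genes called in the block fit were not computed. Members below 5 CPM rest on few reads at early times.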
